A study of Arabidopsis thaliana with 11 samples.

Results

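A group of 267 loci, 0.95% of the 28094 loci counted, was abundant in both flower bud samples of wild-type Arabidopsis thaliana and almost without reads in 4 leaf samples. They were chosen from the counts themselves, as loci at 10 or more read pairs out of every 1000000 counted (CPM) in the deep HiSeq2000 run of each bud sample and under 0.1 CPM in the leaf libraries of leaf 1a, 2, 3 and 4. The difference between buds and leaves is therefore given as a description, with no test. Among the 13287 loci that reached 10 CPM in both bud runs, the 267 members made up 2.01%.

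The study sequenced polyA-selected RNA, in pairs of reads, from flower buds and leaves of untreated plants grown in soil in a greenhouse, at growth stage 6.0, when the first flower is open. Flower buds gave 2 samples and leaves 4, all labelled wild type, and the ecotype is not given in the sources used here. Both bud samples and leaf 1a and 2 had a deep HiSeq run of 182707504 to 192817049 pairs. Each also had a shallower multiplex run, as did leaf 1b, while leaf 3 and 4 had a GA II run each, and these 7 runs held 34405145 to 41105722 pairs. Nothing in the labels ties a sample number to its own plant or harvest, so the spread between samples may be technical. The labels give neither bud age nor organ, and in such bulk RNA fewer cells of a type and less RNA per cell cannot be told apart.

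As background, the tapetum is the innermost layer of the anther wall. It feeds the developing microspores, makes the precursors of sporopollenin for the outer pollen wall, and on its breakdown leaves oleosins, lipases and lipids on the grain as the pollen coat. Floral organ identity rests on combinations of MADS-box transcription factors, and the ovule and pollen tube carry large families of small secreted cysteine-rich peptides.

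Members took up 2.137% of all pairs in the HiSeq run of bud 1 and 2.029% in that of bud 2. Their mean bud levels ran from 10.14 CPM for ABCG28, an ABC transporter, to 2157 CPM for GRP17, with a median of 28.1 CPM against 36.8 CPM over all 13287 bud loci. Only 4 members averaged 1000 CPM or more and 42 averaged 100 CPM or more, while 80 lay under 20 CPM. The 15 highest held 45.0% of the members' pairs in bud 1 and 49.2% in bud 2. Summed over all 267 members, the leaf level was 4.39 CPM in leaf 1a, 2.85 CPM in leaf 2, 1.78 CPM in leaf 3 and 3.05 CPM in leaf 4. No pair was counted in any of the 4 leaf libraries for 84 members, and 63 had 1 to 3 pairs in all. A count of 0 allows up to 3 pairs, which is 0.00661 CPM of the 4 libraries together, a limit that covers counting error only.

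The limits fell inside a continuous range of levels. Just above the bud minimum lay ABCG28, at 10.07 and 10.20 CPM in bud 1 and 2, and just below it AT4G10010, at 9.99 and 10.5 CPM. Closest under the leaf limit were the floral regulator AP1, AT1G76370 and AT3G28820, each with 19 pairs or 0.0985 CPM in leaf 1a. Closest above it were Iqd4, EXO70H3 and AT5G62750, each with 19 pairs or 0.101 CPM in leaf 2. In the GA II runs 0.1 CPM stood for 3.5 and 3.8 pairs, and 31 loci that met every other limit were kept out by leaf 3 or 4 alone. Leaf 1a or 2 alone kept out 175.

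Of the 15 members highest in mean CPM, 5 (GRP17, GRP19, EXL4, LTP12 and EXL6) were on the list of pollen coat and late tapetum genes. By name, 2 (ACOS5 and MS2) were on that of sporopollenin and 8 on no list. List entries not matched by name, given below, may be among these 8. GRP17 (AT5G07530), an oleosin-domain protein of the pollen coat needed for rapid pollen hydration, stood at 1318 CPM in bud 1 and 2996 CPM in bud 2. ATA27 (AT1G75940), a glycosyl hydrolase with a tapetal transcript, was nearly level between the bud samples, at 1246 and 1255 CPM. GRP19 (AT5G07550), a small oleosin-type protein, was at 1303 and 1114 CPM. AT5G22430, a protein of the pollen Ole e 1 allergen and extensin family, was at 1385 and 824 CPM, the highest member of bud 1. These 4 loci had 3, 10, 8 and 12 pairs over the 4 leaf libraries, which held 453617438 pairs together.

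Next in level were EXL4 (AT1G75910), an extracellular lipase of the pollen coat, at 792 and 731 CPM, and AT1G66850, a lipid-transfer type protein, at 592 and 523 CPM. XTH3 (AT3G25050), of the xyloglucan endotransglucosylases that cut and rejoin a wall polysaccharide, was at 494 and 409 CPM. MEE48 (AT4G14080), a family 17 glycosyl hydrolase, was at 378 and 323 CPM. The next members were enzymes and coat proteins of the same range. TSM1 (AT1G67990), a methyltransferase of the tapetum, was at 385 and 298 CPM. LTP12 (AT3G51590), a lipid transfer protein, was at 349 and 332 CPM, and EXL6 (AT1G75930), another extracellular lipase, at 355 and 306 CPM. AT1G68875, a short protein with no assigned function, was at 288 and 354 CPM. Then came ACOS5, HA6 and MS2. HA6 (AT2G07560), a plasma membrane proton pump, was at 191 and 219 CPM.

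Ranked per length, as CPM per kilobase of the locus length in the files, the order changed because several of these transcripts are short. GRP19 led with a mean of 1859, followed by AT5G22430 with 1186, AT1G66850 with 1170 and GRP17 with 1155 on that scale. ATA27 had 666, LTP12 626 and EXL4 587 CPM per kilobase. GRP17, which is 1868 bases long in the files against 650 for GRP19, led in CPM and not per length. The means of AT5G22430, AT1G66850 and GRP17 differed on that scale by less than each locus differed between bud 1 and bud 2.

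**Figure D1:**
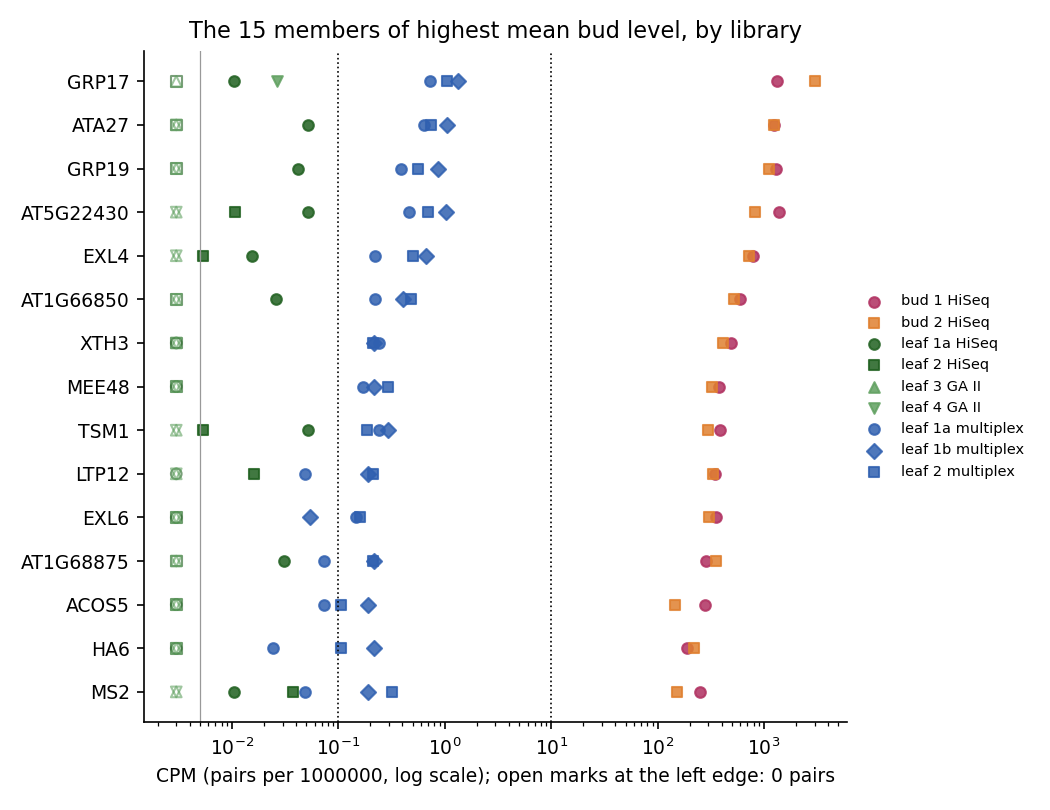
Level of the 15 members of highest mean bud level in CPM (log scale) in the 2 bud HiSeq runs, the 4 leaf libraries used to choose the members and the 3 leaf multiplex runs, with open marks for 0 pairs and dotted lines at 0.1 and 10 CPM. The bud marks of GRP17 stand at 1318 and 2996 CPM, and its leaf multiplex marks lie between 0.730 and 1.32 CPM, right of the other leaf marks.

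Enzymes that build sporopollenin formed a second set. ACOS5 (AT1G62940), the acyl-CoA synthetase that activates fatty acids for sporopollenin, was at 278 CPM in bud 1 and 147 CPM in bud 2, with no pair in the 4 leaf libraries. MS2 (AT3G11980), a fatty acyl reductase of the same pathway, was at 253 and 154 CPM. CYP703A2 (AT1G01280), which hydroxylates lauric acid, was at 62.7 and 51.9 CPM. ABCG26 (AT3G13220), the transporter linked to export of the precursors, was at 78.4 and 55.0 CPM. All 4 were higher in bud 1. Of the 9 genes on a list of this pathway, 4 were members, and the other 5 (CYP704B1, LAP5, LAP6, TKPR1 and TKPR2) passed the bud minimum but had 0.1 CPM or more in at least 1 leaf library. LAP5 missed by little, with 0.106 CPM in leaf 4, while TKPR2 reached 9.66 CPM in leaf 2. The list had a median log2 ratio of bud 2 to bud 1 of -0.83, against -0.09 over all bud loci.

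Of 14 matched genes on a list of the pollen coat and late tapetum, 9 were members, and the remaining 5 were kept out by leaf reads. A further 6 entries of that list, A6, A9, EXL1, EXL2, EXL3 and EXL5, were not matched by name and may be among the members or other loci under their identifiers. ATA1 (AT3G42960), a tapetal dehydrogenase-type protein, was at 71.8 and 41.6 CPM, and A7 (AT4G28395), a lipid-transfer type protein, at 207 and 173 CPM. Of 24 genes on a list of pollen and pollen tube, 5 were members: the profilins PRF4 and PRF5, which bind actin monomers, the actin ACT4, and the sugar importers STP2 and STP6. PRF5 (AT2G19770) was at 70.8 and 39.2 CPM and PRF4 (AT4G29340) at 57.7 and 36.7 CPM. STP6 (AT3G05960) was at 49.8 and 36.3 CPM, and STP2 (AT1G07340) at 41.4 and 36.9 CPM. ACT4 (AT5G59370), at 45.2 and 41.0 CPM, had 34 pairs over the 4 leaf libraries, the most of any member. Its protein is 99.7% identical to that of ACT12, so reads of these loci may have been shared, and its values are uncertain. Of the other entries, 14 had 0.1 CPM or more in a leaf library, and 5 failed the bud minimum only. VGD1, at 696 and 840 CPM in buds, and PPME1, at 467 and 385 CPM, were above all 5 members. Leaf reads of at most 1.79 and 0.165 CPM kept these 2 out. DUO1 and HAP2 of that list, which act in the male germ line, stayed under 2 CPM in both bud samples and so were no members.

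Lists of other cell types gave 2 of 8 matched tapetum regulators (bHLH10, bHLH89 and bHLH91 were not matched by name and may be counted under other identifiers), 4 of 14 petal and stamen genes, 3 of 12 carpel and ovule genes and 2 of 4 meristem genes as members. None of 4 callose wall genes, 7 leaf and mesophyll genes or 5 root genes was a member. The leaf and mesophyll genes were nevertheless abundant in buds, where their levels summed to 10212 CPM in bud 1 and 14237 CPM in bud 2, against 30830 to 50486 CPM in the 4 leaf libraries. Of the root list only SHR reached 10 CPM in both bud samples, and RHD6, which defines root hairs, had 0 pairs in both.

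Transcription regulators made up 32 of the 267 members, 12%, a share not computed for other loci. The MADS-box family gave AP3, AP1, STK and SHP2. AP3 (AT3G54340), which specifies petals and stamens, was at 223 CPM in bud 1 and 166 CPM in bud 2. AP1 (AT1G69120), a regulator of floral meristem and sepal and petal identity, was at 165 and 206 CPM. STK (AT4G09960), an ovule identity gene, was at 50.4 and 19.8 CPM, and SHP2 (AT2G42830), which acts in carpels and ovules, at 32.1 and 21.2 CPM. Thus AP1 was higher in bud 2 and the other 3 in bud 1. AG, PI and the SEP genes on the petal and stamen list passed the bud minimum and were kept out by leaf reads, at most 1.12 CPM. CRC (AT1G69180), the YABBY regulator of carpels and nectaries, was at 14.4 and 28.0 CPM, with no pair in the 4 leaf libraries.

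Regulators of the meristem differed little between the bud samples. STM (AT1G62360), which keeps meristem cells undifferentiated, was at 41.2 and 47.3 CPM, and WUS (AT2G17950), which maintains the stem cells of shoot and floral meristems, at 18.6 and 21.9 CPM. MYB21 (AT3G27810), a jasmonate-responsive regulator of stamen and petal growth, was at 76.7 and 64.6 CPM. MYB24 (AT5G40350), which acts with it, was at 24.3 and 31.1 CPM, so these related genes leaned opposite ways. MYB101 (AT2G32460), a pollen tube regulator, was at 24.1 and 29.4 CPM and had 27 pairs over the 4 leaf libraries. MYB99 (AT5G62320) was at 13.2 and 10.2 CPM and AT1G18960 at 35.03 and 15.2 CPM. In the anther, SPL (AT4G27330), needed to start spore-forming cells, was at 14.2 and 11.8 CPM, and MS1 (AT5G22260), a PHD-finger regulator of the late tapetum, at 11.5 and 11.4 CPM.

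Other regulators ranged from NAC025 (AT1G61110), at 128 and 132 CPM, down to ZFHD1 (AT1G69600), at 10.4 and 12.6 CPM. SHN1 (AT1G15360), a regulator of cuticular wax, was at 68.7 and 63.2 CPM. LBD2 (AT1G06280) was at 33.9 and 14.1 CPM, LBD27 (AT3G47870) at 23.6 and 12.3 CPM, and LBD20 (AT3G03760) at 31.5 and 23.4 CPM. All 3 LOB-domain members were higher in bud 1. GRF5 (AT3G13960), a growth-regulating factor, was at 35.3 and 19.1 CPM, and VDD (AT5G18000), needed in the embryo sac, at 18.4 and 11.3 CPM. The remaining 10 were HB-3, MIF2, CES, REM1, TRFL2, MYB117, AT2G16210, AT5G60140, AT2G31210 and AT1G31310, at 11.7 to 43.9 CPM in the HiSeq runs. In total 23 of the 32 regulators were higher in bud 1 and 9 in bud 2, with 20 and 12 after TMM scaling of the libraries. Over all members 63.7% were higher in bud 1, and over all bud loci 56.9%. After TMM scaling these shares were 59.2% and 50.7%, so the lean of the regulators is not particular to them.

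Transport proteins numbered 27, at mean levels of 10.14 to 205 CPM. The 4 SWEET sugar exporters SWEET10, SWEET8, SWEET3 and SWEET7 were at 133, 69.5, 54.2 and 49.95 CPM in bud 1. In bud 2 they were at 106, 40.7, 40.9 and 36.7 CPM, each lower than in bud 1. BOR4 (AT1G15460), a borate exporter, leaned the other way, at 60.5 and 97.5 CPM. IRT1 (AT4G19690), known as the iron importer of roots, was at 10.8 and 11.4 CPM with no pair in the 4 leaf libraries.

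Enzymes of lipid, phenolic and terpenoid metabolism numbered 21. SHT (AT2G19070), the acyltransferase that makes the hydroxycinnamoyl spermidines of the pollen coat, was at 126 and 189 CPM. GGPS2 (AT2G23800), a geranylgeranyl diphosphate synthase, was at 162 and 187 CPM. CYP706A3 (AT5G44620), a floral terpene oxidase, was at 94.5 and 161 CPM, while its neighbour AT5G44630, a terpene synthase, was at 143 and 74.7 CPM. These adjacent loci thus differed in opposite directions between the bud samples. TPS21 (AT5G23960), a sesquiterpene synthase, was at 19.3 and 30.8 CPM, and CYP78A5 (AT1G13710), which promotes organ growth, at 18.2 and 28.9 CPM.

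By protein similarity 124 of the 267 members, 46.4%, fell into 44 families of 2 or more members. This share was not computed for other loci, so it describes the members and does not set them apart. Families were linked where the TAIR10.1 proteins matched by blastp at an E-value of 1e-10 or less, with 30% identity over 50% of the shorter protein. The largest family held 8 proteins of the DUF220 domain of unknown function, followed by 7 GDSL-type lipases, 5 MYB regulators and 5 oleosin-type glycine-rich proteins. Cytochromes P450, subtilases, protein kinases, MADS-box factors, LCR peptides and SWEET transporters gave 4 each. In the lipase family EXL4, EXL6 and RXF26 led per length, at 587, 271 and 143 CPM per kilobase. RXF26 (AT1G58430) was at 249 CPM in bud 1 and 125 CPM in bud 2. Among subtilases SBT4.13 (AT5G59120), at 72.8 and 90.9 CPM, led per length with 34.1 CPM per kilobase.

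Tandem neighbours were counted as members of one chromosome whose locus numbers lay up to 50 apart, about 5 annotated loci. By that measure 53 members, 19.9%, had another member as a neighbour, in 20 groups. Of the groups 16 were pairs and 4 held 3 or more members. Counted around each member in turn, 92 of 2903 neighbours within that distance were members, 3.17%, against 0.958% of all 27884 nuclear loci. A locus near several members was counted for each, so large groups weighed most, and the largest held 9 members. Members lay on all chromosomes, with 85 on chromosome 1, 35 on 2, 37 on 3, 36 on 4 and 74 on 5. In 6 of the 20 groups all members belonged to a single protein family, and 14 were mixed.

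The largest group ran from AT1G23520 to AT1G23690 and held 9 members, 8 of them DUF220 proteins and AT1G23620, which TAIR10.1 lists without a protein. AT1G23570 was the highest, at 99.9 CPM in bud 1 and 116 CPM in bud 2. The other 8 members were at 12.05 to 34.6 CPM in the HiSeq runs. AT1G23660, AT1G23670, AT1G23690 and AT1G23620 had no pair in the 4 leaf libraries. Of the 8 DUF220 members 7 were higher in bud 2, by 0.004 to 0.82 on the log2 scale, and AT1G23600 was higher in bud 1. The lowest of these, AT1G23520, was level at 28.1 and 28.2 CPM. Not every locus between them was a member: AT1G23560, also of DUF220 type, was at 66.2 and 51.5 CPM in buds but at 0.186 to 0.607 CPM in leaves. AT1G23640 and AT1G23680, of the same domain, were at 3.08 CPM or less in both bud samples. These loci have related sequences, and how reads fitting several loci were counted is not given in the sources used here, so their separate levels are uncertain.

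The oleosin-type group ran from AT5G07510 to AT5G07600 and held GRP14, GRP17, GRP16, GRP19 and AT5G07600. GRP14 (AT5G07510) was at 76.2 CPM in bud 1 and 224 CPM in bud 2, and GRP16 (AT5G07540) at 105 and 299.9 CPM. AT5G07600 was at 44.5 and 47.7 CPM. GRP14, GRP16 and GRP17 were thus more than 2-fold higher in bud 2, while GRP19, which lies between GRP16 and GRP20, was lower there, at 1303 and 1114 CPM. GRP18 and GRP20 of the same stretch were no members because of leaf reads of 0.234 and 0.212 CPM at most, and they too were higher in bud 2, by 1.58 and 1.31 on the log2 scale.

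The lipase group held EXL4, EXL6 and ATA27, side by side with AT1G75920. That lipase, at 81.2 and 77.1 CPM in buds, was kept out by leaf 3 alone, at 0.142 CPM, which is 5 pairs. A further group held AT1G28305 and AT1G28306, self-incompatibility S1 type proteins, the defensin-like LCR31 and the short protein AT1G28375. AT1G28305 was at 27.5 and 14.05 CPM, AT1G28306 at 18.8 and 10.8 CPM and LCR31 (AT1G28335) at 18.3 and 10.6 CPM. AT1G28375 was at 59.4 and 51.1 CPM. All 4 were higher in bud 1. Among the pairs were A7 with AT4G28397, SHT with the lipase AT2G19060, MS2 with AT3G12000, and the prenyltransferases cPT8 and cPT9, whose proteins are 90% identical.

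**Figure D2:**
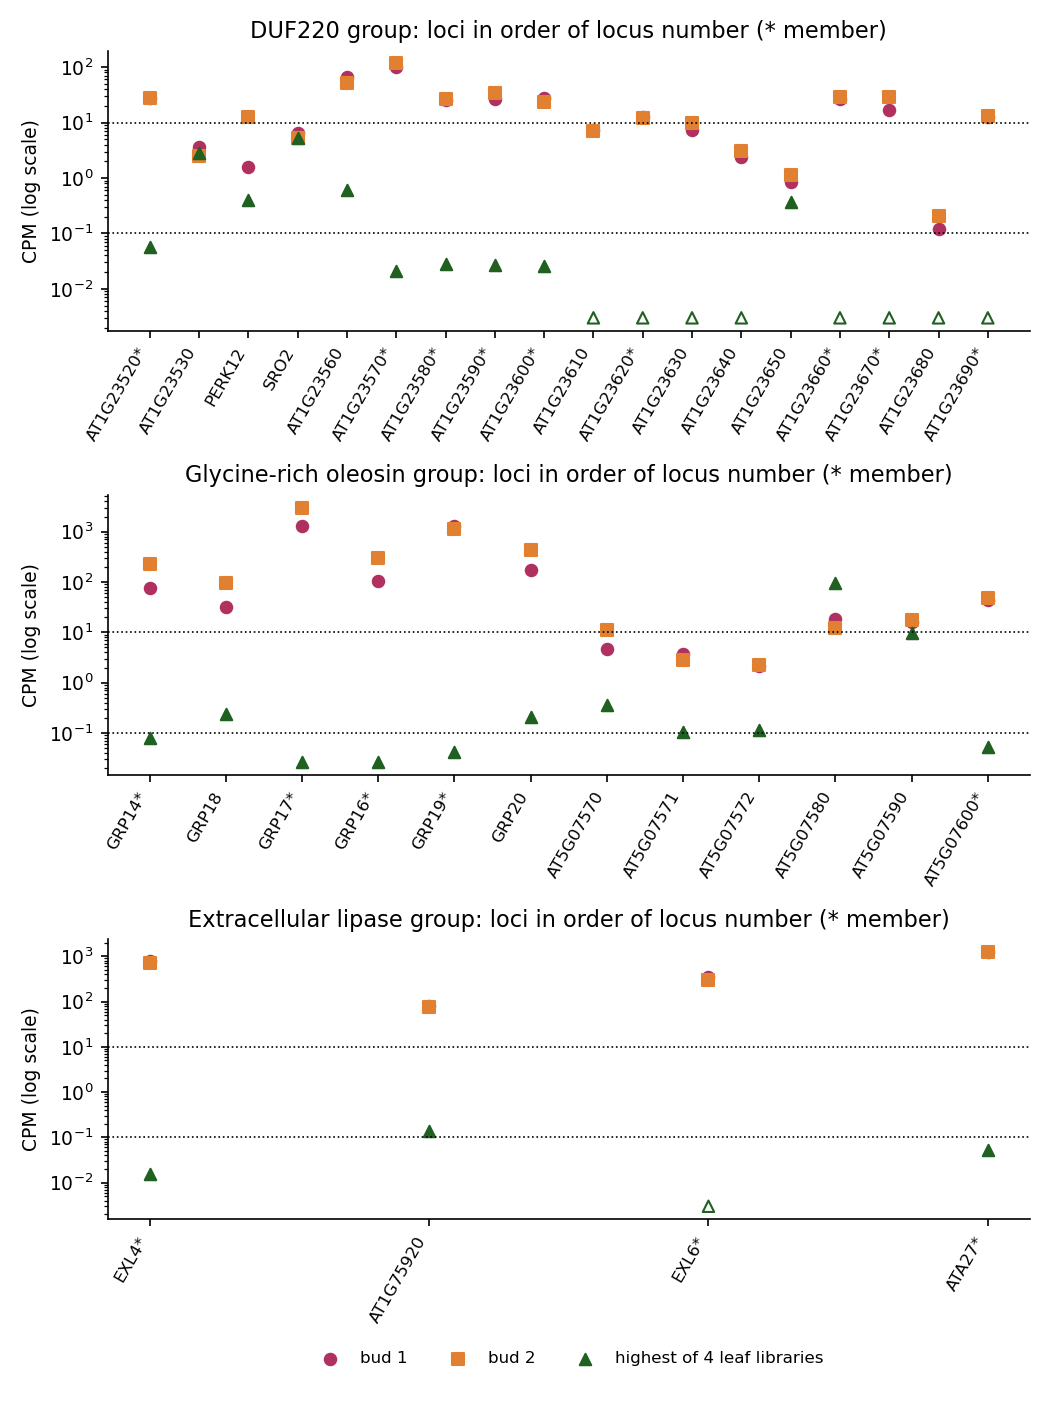
Levels in CPM (log scale) of all counted loci in 3 tandem groups, in order of locus number, with stars for members, open marks for 0 pairs and dotted lines at 0.1 and 10 CPM. In the oleosin-type group GRP18 and GRP20 have bud levels like those of members, and their highest leaf marks, 0.234 and 0.212 CPM, lie just above the lower line.

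The bud samples, 1 and 2, were compared member by member. The 2 runs of each sample give the technical error, but there is only 1 sample on each side, so no test of the difference between the bud samples was made. The log2 ratio of bud 2 to bud 1 differed between the HiSeq and multiplex runs by a median of 0.046 and at most 0.275, for AT5G13350, an auxin-responsive GH3 protein. In 248 of the 267 members, 92.9%, the HiSeq ratio was larger than that member's own difference between runs, as in 93.0% of all 13287 bud loci. The direction was the same in both kinds of run for 259 members, 97.0%, and for 96.6% of bud loci, and repeat runs measure technical error only. At 10 CPM a member had about 1827 pairs in bud 1 and 1829 in bud 2, so counting error is small beside these ratios.

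Members were more often higher in bud 1. Of the 267, 170 were higher in bud 1 and 97 in bud 2, 63.7% against 56.9% of all 13287 bud loci. The median log2 ratio of bud 2 to bud 1 was -0.23 in both kinds of run, against -0.09 over the bud loci. A difference of 2-fold or more in favour of bud 1 was found in 16 members, 5.99%, where the share over the bud loci was 2.27%. In favour of bud 2 it was found in 8 members, 3.0%, where the share over the bud loci was 5.77%. All 24 had the same direction in the multiplex runs, and 21 were 2-fold there as well. No member reached 3-fold either way, which 0.113% of bud loci did in favour of bud 1 and 1.59% in favour of bud 2.

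MEE26 (AT2G34870), named for an embryo arrest phenotype, had the largest ratio, at 13.8 CPM in bud 1 and 41.3 CPM in bud 2, with 13.2 and 41.3 CPM in the multiplex runs. GRP14 followed at 76.2 and 224 CPM, with 77.2 and 220.0 CPM in the multiplex runs. SBT5.4 (AT5G59810), a subtilase, was at 16.9 and 49.3 CPM, with 15.6 and 49.5 CPM in the multiplex runs. The folds were 2.99, 2.94 and 2.92. These genes were picked for their ratios and for the same direction in the multiplex runs, so those runs add no support. GRP16 was 2.87-fold and AT1G70720, a pectin methylesterase inhibitor type protein, 2.44-fold higher in bud 2. GRP17 (2.27-fold), PAP21 (2.15-fold) and AT4G15980 (2.14-fold) completed the 8.

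STK was the member that favoured bud 1 most, at 50.4 CPM in bud 1 and 19.8 CPM in bud 2, with 49.7 and 19.0 CPM in the multiplex runs. AT3G59455, a lipid-transfer type protein, was at 56.9 and 22.4 CPM, with 58.5 and 23.7 CPM in the multiplex runs. GILT (AT4G12960), a thiol reductase type protein, was at 108 and 44.6 CPM, with 104 and 44.4 CPM in the multiplex runs. These were 2.54-, 2.54- and 2.42-fold higher in bud 1, and were picked in the same way. LBD2 was 2.41-fold and AT5G26730, a fasciclin-like arabinogalactan protein at 181 and 77.0 CPM, 2.35-fold higher in bud 1.

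**Figure D3:**
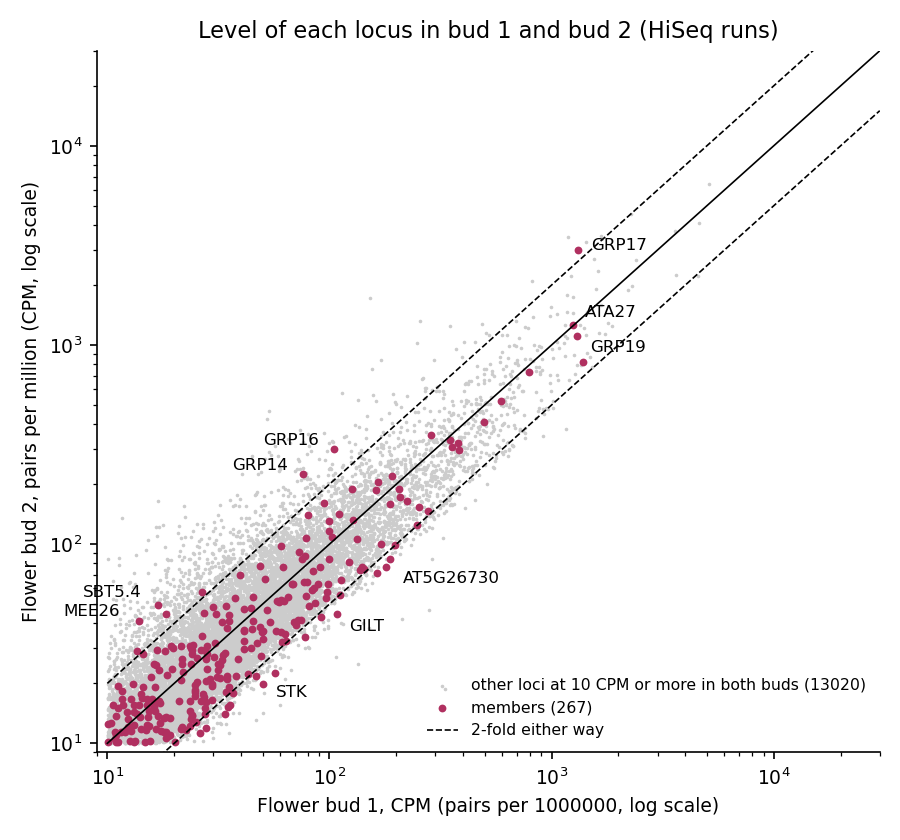
Level of each locus in the HiSeq runs of bud 1 and bud 2 in CPM (both axes on log scales), for the 267 members in colour and the other 13020 loci at 10 CPM or more in both in grey, with the line of equal level and dashed lines at 2-fold. GRP17, GRP16, GRP14, SBT5.4 and MEE26 lie above the upper dashed line, and STK, GILT and AT5G26730 below the lower one.

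Classes of product differed in their lean. Classes were assigned from the TAIR10.1 product names after the values were seen, so they describe and support nothing. Of 22 small cysteine-rich and other secreted peptides, 20 were higher in bud 1, with a median log2 ratio of -0.79 and a range of -1.22 to 0.67. LCR17 (AT4G11760), a defensin-like peptide, was at 137 CPM in bud 1 and 74.0 CPM in bud 2, and LCR66 (AT1G61070) at 97.8 and 57.8 CPM. The exceptions were AT1G44224, of the ECA1 gametogenesis type, at 48.7 and 77.5 CPM, and AT2G18420, of the gibberellin-regulated type, with a log2 ratio of 0.02. Of the 12 lipid-transfer type proteins, 10 were higher in bud 1 (9 after TMM scaling), with a median of -0.52, and 4 of them by 2-fold or more. AT5G52160 was at 187 and 84.0 CPM and AT5G62080 at 163 and 71.6 CPM, whereas AT1G62500 was at 110 and 142 CPM.

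The 6 oleosin and caleosin type proteins had a median log2 ratio of 0.64, but they were split. GRP14, GRP16 and GRP17 were 2-fold or more higher in bud 2, AT5G07600 had a log2 ratio of 0.10, and 2 were higher in bud 1. Over that class the summed level was 3051 CPM in bud 1 and 4871 CPM in bud 2, of which GRP17 alone made up 1318 and 2996 CPM. The 8 DUF220 proteins had a median of 0.13 and the 7 lipases one of -0.11. Medians were -0.26 for the 32 transcription regulators, -0.14 for the 27 transport proteins, -0.20 for the 26 pectin and cell wall proteins and -0.25 for the 21 enzymes of lipid, phenolic and terpenoid metabolism. The 106 members outside these classes had a median of -0.21. No class median had the opposite sign with TMM or DESeq2 scaling.

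The marker lists were also compared between the bud samples, and they leaned in both directions. Of the 7 leaf and mesophyll genes 6 were higher in bud 2, all but LHCB1.1, with a median log2 ratio of 0.93 and a summed level of 10212 CPM in bud 1 and 14237 CPM in bud 2. The petal and stamen list had a median of -0.46 and the carpel and ovule list one of -0.47, each with members and non-members counted. Medians were -0.83 for sporopollenin, -0.35 for tapetum regulators and -0.16 for pollen and pollen tube. They were 0.18 for root, 0.20 for meristem and 0.38 for callose wall genes. The pollen coat and late tapetum list had a median of -0.09, the same as all bud loci. It summed to 6596 CPM in bud 1 and 9263 CPM in bud 2. Within that sum GRP17 was at 1318 and 2996 CPM and ATA20 at 1617 and 2354 CPM. The part of tissue makeup or bud age in the difference between the bud samples was not tested.

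**Figure D4:**
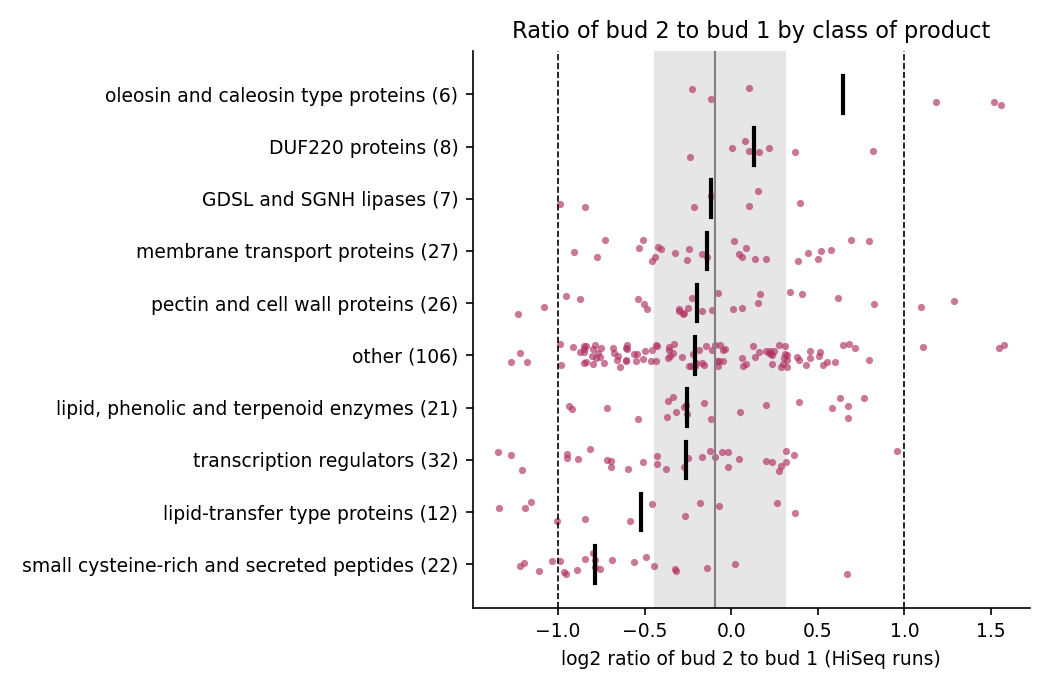
Log2 ratio of bud 2 to bud 1 (HiSeq runs) of each member by class of product, with the class median as a black bar, the median of all 13287 bud loci as a grey line, their quartile range as a grey band and dashed lines at 2-fold. The median is -0.79 for the small cysteine-rich peptides and 0.64 for the 6 oleosin and caleosin type proteins, 3 of which lie beyond 2-fold towards bud 2.

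The multiplex runs were not used to choose the members, but they are repeat measurements of samples that were. In the bud multiplex runs 262 members were at 10 CPM or more in both, a share not computed over all bud loci. In the leaf multiplex runs the members' levels summed to 11.46 CPM in leaf 1a, 17.42 CPM in leaf 1b and 15.41 CPM in leaf 2. That was 0.0551%, 0.0838% and 0.0741% of the mean bud sum in the multiplex runs, against 0.00857% to 0.0211% in the 4 leaf libraries that chose the members. Low leaf values were required of those 4 libraries and not of the multiplex runs. In all 3 leaf multiplex runs 195 members stayed under 0.1 CPM, 72 reached it in at least 1, and 12 in all 3.

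Leaf levels in the multiplex runs followed the bud levels. Of the 42 members with a mean bud level of 100 CPM or more, 37 reached 0.1 CPM in a leaf multiplex run, against 35 of the other 225. GRP17, the member highest in mean bud CPM, was also the highest there, at 0.730 CPM in leaf 1a, 1.32 CPM in leaf 1b and 1.04 CPM in leaf 2. In the HiSeq runs of the same leaf samples it was at 0.0104 CPM in leaf 1a and had no pair in leaf 2. ATA27 was at 0.632, 1.05 and 0.746 CPM in the leaf multiplex runs, against 0.0519 CPM in the HiSeq run of leaf 1a and 0 in that of leaf 2. AT5G22430, GRP19 and EXL4 came next, at 0.219 to 1.02 CPM. The 5 members with the highest bud levels were thus the 5 highest in the leaf multiplex runs. Across the 267 members the rank correlation of bud level with pooled leaf level was 0.585 in the multiplex runs, as a description over genes that share libraries. No such value is given for the 4 libraries that chose the members, since the choice capped their levels. The source of these reads was not tested.

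**Figure D5:**
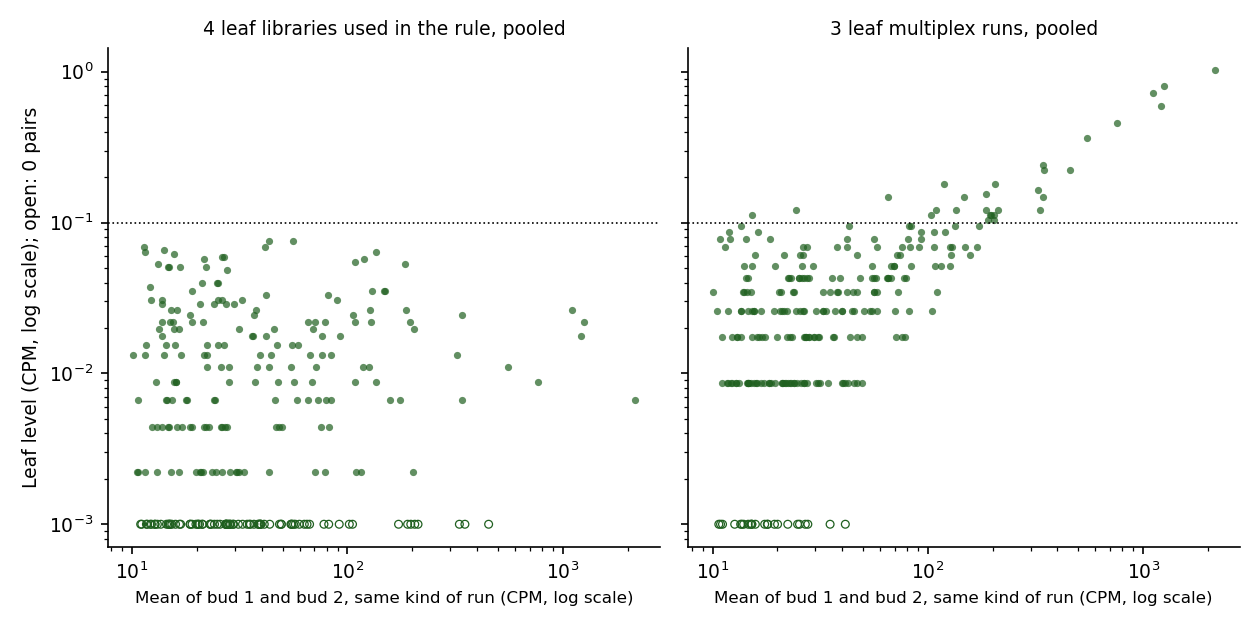
Pooled leaf level against mean bud level of each of the 267 members, both in CPM (log scales), for the 4 leaf libraries used in the choice (left) and the 3 leaf multiplex runs (right), with open marks for 0 pairs and a dotted line at 0.1 CPM. On the right the leaf level climbs with the bud level, with a rank correlation of 0.585, while on the left the choice of members itself held each library under 0.1 CPM, so the panels are not to be compared in slope.

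The members' proteins were short and often began with a hydrophobic stretch. The choice did not use these features directly, but its limits in CPM were not scaled by length, so length could affect it. Members had a median locus length of 1218 bases, against 1615 bases over all bud loci. The 266 members with a protein in TAIR10.1 had a median length of 326.5 residues, against 417 residues for 12912 other bud loci. Proteins under 150 residues made up 46 of them, 17.3% against 7.28%. A stretch of 12 residues with a mean hydropathy of 2 or more within the first 35, a simple mark of a signal peptide or membrane anchor, was found in 125 members, 47.0% against 15.5%. Among proteins under 150 residues, cysteine made up a median of 5.88% of residues in members and 1.34% in the others. No test of these shares was made.

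Promoter motifs were counted in the 250 bases before and 50 bases after each TAIR10.1 gene start, on both strands. The TATA box TATAAA was present in 58.8% of members, 50% of other bud loci and 48.7% of all genes. The E-box CANNTG was present in 60.7%, 62.2% and 62.8%. The G-box CACGTG, which is also an E-box, was present in 7.12%, 9.6% and 6.45%. The element CCAACC, an AC-type MYB motif, was present in 8.61%, 8.08% and 8.3%, and AGAAA, an element described in a pollen promoter, in 88.8%, 87.9% and 87.4%. These matches are descriptions of letters in a window, not binding sites.

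Leaf levels were also read for the closest relative of each member outside the group, without a test. Of 234 members with a similar protein outside the group, 85 (36.3%) had as the closest one a locus at 1 CPM or more in every leaf library used, against 56.0% of all loci. At 10 CPM or more the count was 46, 19.7% against 31.6% of all loci. ACA7 (AT2G22950), a calcium pump at a mean of 30.4 CPM in buds, is 92.9% identical in protein to ACA2, which was at 56.3 CPM in leaves. PPa3 (AT2G46860), a pyrophosphatase at 81.1 CPM in buds, is 89.0% identical to PPa1, at 62.5 CPM in leaves. GRF12 (AT1G26480), a 14-3-3 protein at 68.5 CPM in buds, is 75.9% identical to GRF9, at 230.3 CPM in leaves. PRF4 and PRF5 are 73.9% and 75.4% identical to PRF1, the profilin at 42.5 CPM in leaves. AGO9 (AT5G21150) and AGO5 (AT2G27880), Argonaute proteins that bind small RNAs, were at 92.7 and 45.8 CPM in buds, and their closest relatives AGO4 and AGO1 at 32.1 and 143 CPM in leaves. For 40 members the closest protein of all was another member, and 23 had no similar protein.

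Some members' levels are less certain than others. Proteins of 16 members were 90% or more identical to their closest relative, among them ACT4, ACA7, cPT8, cPT9 and AT4G20670, whose protein is identical to that of AT4G20530. A further gene model overlapped 36 members, 13.5% against 27.1% of all loci, and these included GRP16, SHT, MYB21, ABCG26, STK, SHP2 and CRC. Whether the counting used strand is not given in the sources used here, so reads of such overlapping genes could not be told apart.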

How the data were processed

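Each deposited file holds, per the file headers, a raw count of proper read pairs for every locus, beside counts of single reads and of pairs within an insert limit of 500 (1000 for the HiSeq run of leaf 1a), made by the authors with sam2pkm. Bowtie2 2.0 is named in the submitters' processing notes. The genome build, annotation release, use of strand and treatment of reads that fit several loci are not given in the sources used.

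Each pair count was divided by its library's total and multiplied by 1000000 (CPM), with no other scaling. Members met 10 CPM in both bud HiSeq runs and under 0.1 CPM in leaf 1a, 2 (HiSeq), 3 and 4 (GA II). Multiplex runs, including leaf 1b, a technical replicate of leaf 1a, served as repeat measurements. Levels were given and ranked in CPM, except where a ranking per length, with the locus lengths of the files, is stated. All 267 members matched TAIR10.1 by locus identifier, but only 22.8% of 27320 loci had the length of a TAIR10.1 transcript, so that annotation gave names, products, overlaps, proteins and promoter windows of its own and no coordinates. Proteins were compared with blastp 2.17.0. TMM and DESeq2 size factors for alternatives came from edgeR 4.0.16 and DESeq2 1.42.0 in R 4.3.3, and other steps ran in Python 3.11.15. The membership rule, ratios and grouping were run on simulated data with known answers. The planted loci lay far from the limits, so this checks the code and not the choice near the limits.

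No test was made, because the choice of members fixes the difference between tissues and each bud sample stands alone. The members and the 10 marker lists (110 entries, 101 matched by name) were chosen with earlier results of these data known. The genes named are the 15 highest in mean CPM, the 5 largest and 5 smallest ratios of bud 2 to bud 1 with the same direction in the multiplex runs, members of the 3 largest tandem groups, the 3 highest per length of the 6 largest families, members on the lists, regulators, the 3 loci on each side of each limit, the 5 highest in the leaf multiplex runs, and others chosen after their values were seen.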

Additional observations from a re-analysis of the deposited data

How the results depend on the processing

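The number of members depended on the limits: it was 462 with a bud minimum of 5 CPM and 153 with one of 20 CPM, and stayed within 1.5 times of 267 under the other choices. Library scaling lowered it to 194 (TMM) and 189 (DESeq2 size factors), all of them among the 267, since scaling lowers bud levels and raises leaf levels. Leaving out 1 sample gave 270 to 332 loci. Holding the multiplex runs to the same limits left 190. Members higher in bud 1 numbered 74 at 1.5-fold and 0 at 3-fold, and those higher in bud 2 numbered 24 and 0. The median log2 ratio of bud 2 to bud 1 was -0.145 with TMM scaling, which also moved the median of all bud loci from -0.094 to -0.010, and members higher in bud 1 then made up 59.2% against 50.7%. All counts of tandem neighbours (39 to 78), of members in families (85 to 128) and of members under the limit in leaf multiplex runs (195 to 245) stayed within 1.5 times of the reported ones. No paired analysis was possible because no result comes from a test, and nothing in the labels shows that bud and leaf samples of the same number belong together. Depth sets how finely 0.1 CPM can be read, as 3.5 pairs in leaf 3, 3.8 in leaf 4, 19.3 in leaf 1a and 18.8 in leaf 2.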
